A study of Mus musculus with 53 samples.

Results

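Gene expression was compared between mouse embryonic stem cells in which both alleles of Tbx3 were targeted (N/N, genotype Tbx3 -/-) and the wild type cells (+/+). The genes were taken by a rule on level: every named gene of the deposited bulk table that reached 1 FPKM in at least 1 of the libraries, without microRNA, small nucleolar and small nuclear RNA names and without names that a spreadsheet had turned into dates. FPKM counts fragments relative to the length of the transcript and the size of the library. The rule kept 11268 of 11647 genes. It left out 192 small RNA names, 18 dates and 169 genes below the level. Just inside it lay Ggt7 (0.857 FPKM in +/+ and 1.00 in N/N), and just outside it the transcript AA474331 (0.979 and 0.999).

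The series holds 53 samples, and 2 libraries make this comparison. All cells were R1, an embryonic stem cell line from the 129 strain of mouse, grown in serum with the cytokine LIF and without a feeder layer. Total RNA was made into TruSeq libraries and read as single reads of 26 or 100 bases, and the sources used here do not say which library had which. A library with 1 targeted allele (+/N, genotype Tbx3 +/-) stands beside the pair, as do libraries of wild type cells carrying a hairpin against luciferase (shLuc) or against Tbx3 (shTbx3). Whether the N/N cells are 1 clone, and which part of Tbx3 was deleted, are not given in the sources used here. Each side has 1 library, so no difference below has a replicate check and none carries a p-value.

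Tbx3 is a T-box transcription factor that acts mainly as a repressor in many tissues and that helps to hold mouse embryonic stem cells in a self-renewing state. Such cells are kept in that state by LIF acting through STAT3, while FGF acting through ERK moves them towards differentiation, and a small part of a culture in serum drifts towards primitive endoderm. Embryonic stem cells are also known for a weak interferon response and for a metabolism that leans on glycolysis.

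The level of the targeted gene was lower with each targeted allele. Tbx3 stood at 44.4 FPKM in +/+, with 22.5 in +/N and 15.1 in N/N, and at 13.8 in shLuc and 5.09 in shTbx3. The N/N library thus kept reads over Tbx3 and read slightly above shLuc, and since the deleted part is not known the value does not show how much intact transcript remained. The stem cell markers were high in both libraries, and all 12 listed stem cell markers that could be compared were within 2-fold, with a median log2 difference of -0.27. Pou5f1, the core pluripotency factor, was at 659.9 FPKM in +/+ against 532 in N/N, and Utf1 at 597 and 602. None of the 11268 genes compared was listed at 0 in either library, the 17 endoderm markers compared among them. The summed level of these 17 was 257.4 FPKM in +/+, with 157.7 in +/N and 141.6 in N/N. The hairpin libraries, at 80.4 FPKM in shLuc and 132.4 in shTbx3, lay below both +/+ and N/N. The sum over 10 fibroblast markers ran the other way among the allele libraries, at 185.6, 336.4 and 307.9 FPKM, and was 55.5 in shLuc and 148.6 in shTbx3. Blood and endothelial markers, 7 in the table, summed to 63.2, 53.8 and 48.5 FPKM in +/+, +/N and N/N. Their sum was 134.2 in shLuc and 44.2 in shTbx3.

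Differences are given as log2((N/N + 1)/(+/+ + 1)) in FPKM, where a positive value is higher in N/N. The pseudocount of 1 understates the change of genes at low level. A difference of 2-fold on this scale is used as the limit for a call. In all, 126 genes (1.12% of those compared) were at least 2-fold higher in N/N and 164 (1.46%) at least 2-fold lower, 290 or 2.57% either way. Of any size, 46% of the differences were positive and 54% negative. Only 5 were at least 4-fold higher and 14 at least 4-fold lower. The median difference was -0.03, and the middle of the distribution ran from -0.24 to 0.19. At the edge of the call, the junction protein gene Cldn4 (1.00) and Mmel1 lay just inside on the higher side and the clock gene Per1 and the Polycomb gene Ezh1 just outside. On the lower side Cbfb and Rasl11a lay just inside and Nxf7 and Zfp628 just outside. The 44 lists of genes used below hold 1114 compared genes.

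**Figure D1:**
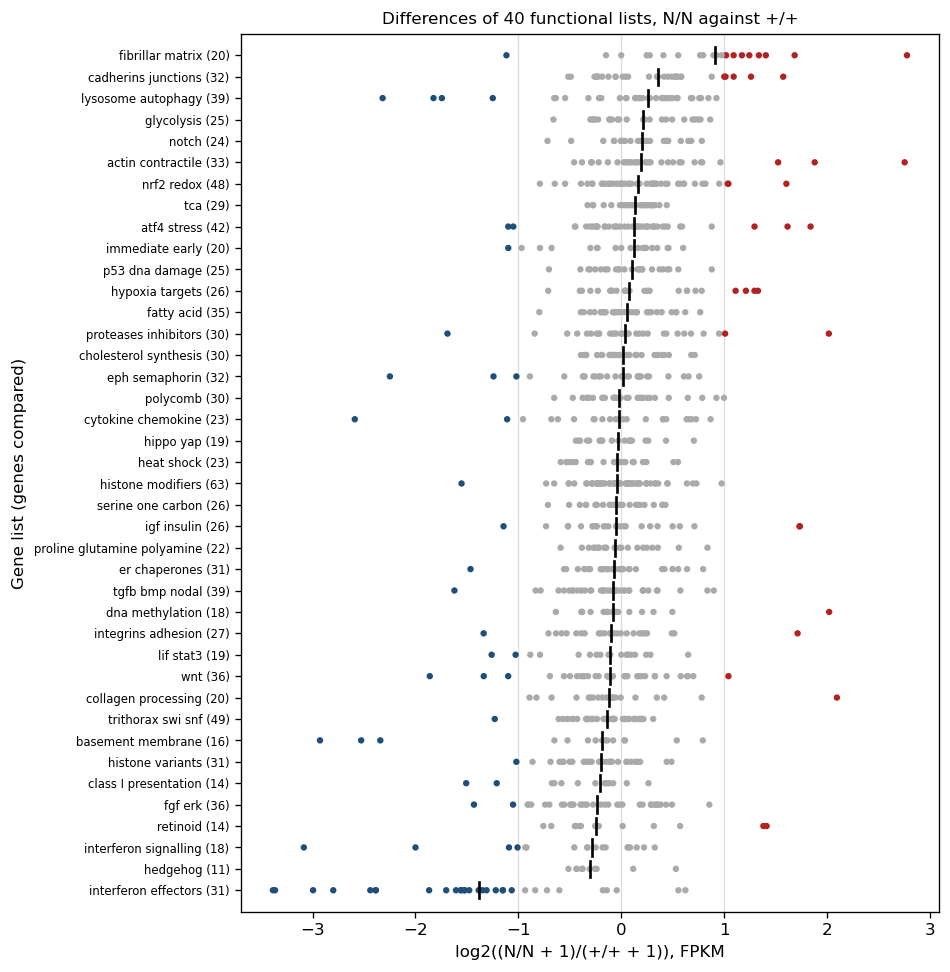
Differences of the genes in 40 functional lists, 1 row per list, with the number of genes compared in brackets. The x axis is log2((N/N + 1)/(+/+ + 1)) in FPKM, each dot is 1 gene (red at least 2-fold higher in N/N, blue at least 2-fold lower) and the black bar is the list's median. Interferon effectors have the lowest median (-1.39) and interstitial matrix proteins the highest (0.91), while most lists have medians near 0.

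The interferon response was the functional group with the lowest median in N/N. Interferons signal through the kinases Jak1 and Tyk2 to STAT and IRF factors, which bind a repeated GAAA element and switch on antiviral effectors. Of 51 listed effectors 31 could be compared, 29 were lower in N/N and 22 (71%) were at least 2-fold lower, beside 1.46% of all genes. The median log2 difference was -1.39. No effector was 2-fold higher.

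The effectors are best seen library by library. Usp18, a protease that removes ISG15 from proteins and restrains the receptor, was at 37.3 FPKM in +/+, with 3.27 in +/N, 2.66 in N/N, 0.0814 in shLuc and 0.615 in shTbx3, a log2 difference of -3.39 between N/N and +/+. Isg15, the ubiquitin-like modifier itself, was at 53.9, 3.66, 4.33, 0.526 and 9.1 FPKM in the same order. Irgm1, an immunity-related GTPase, was at 72.3, 9.83, 8.2, 1.37 and 8.37 FPKM. In each of these genes the +/+ library was the high one, and the other 4 lay below it. Bst2, the tether that holds enveloped viruses at the cell surface, was the effector with the highest level, at 795 FPKM in +/+, with 226 in +/N and 269 in N/N. Oasl1, of the oligoadenylate synthetase family that senses double-stranded RNA, was at 15.3, 2.16 and 2.12 FPKM.

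Over the 22 effectors the median level was 15.8 FPKM in +/+, with 3.89 in +/N, 4.07 in N/N, 1.41 in shLuc and 2.79 in shTbx3. These 22 were chosen by their +/+ and N/N values, so their lower level in N/N is fixed by the choice, and a choice of genes that read high in +/+ also tilts the other libraries low. Over all 31 effectors compared, 29 were below the +/+ library in +/N, 29 in N/N, 28 in shLuc, whose cells are labelled wild type, and 27 in shTbx3. The medians over the 31 were 13.7 FPKM in +/+, with 4.32 in +/N, 4.30 in N/N, 1.73 in shLuc and 3.16 in shTbx3. Of the 9 effectors within 2-fold, 6 were below +/+ in shLuc and 5 in shTbx3. Ifitm1 (179 FPKM in +/+ against 378 in shLuc) and Ifitm2 (288 against 486), membrane proteins that block viral entry and that were named after their values were seen, were higher in shLuc. The genotype of the targeted cells and the state of this 1 wild type culture cannot be told apart.

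The list was not uniform. Ifitm3, a membrane protein that blocks viral entry, was at 446 FPKM in +/+ against 200.4 in N/N, while its neighbours Ifitm2 (288 and 279) and Ifitm1 (179 and 276) were level or higher. These copies are alike, so reads may have been split between them. All 7 genes of the Oas family were lower, 5 of them at least 2-fold, with the same reservation about shared reads. Of 10 PARP genes, which attach ADP-ribose to proteins, 4 were at least 2-fold lower and 3 were higher. Of all genes compared, 1.46% were at least 2-fold lower.

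**Figure D2:**
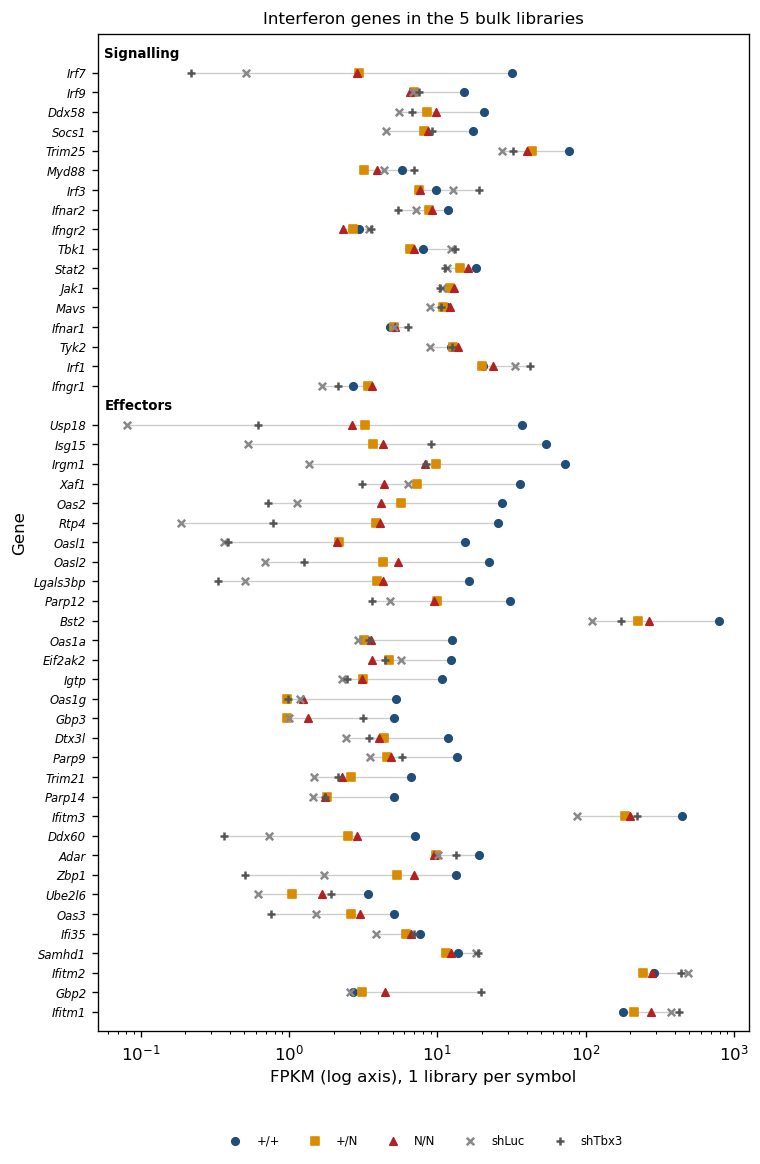
FPKM (log axis) of most of the interferon signalling genes and of the interferon-stimulated effectors in the 5 bulk libraries, 1 symbol per library and no error bars because each has 1 library. Genes are ordered by the difference between N/N and +/+; in the upper rows of each block the +/+ circle lies to the right of all other symbols, and in the lower rows (Jak1, Tyk2, Irf1) the +/+, +/N and N/N symbols lie close together.

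A smaller part of the signalling genes upstream passed 2-fold than of the effectors. Of 18 signalling genes compared, 4 (22.2%, beside 1.46% of all genes) were at least 2-fold lower and none 2-fold higher. Irf7, which amplifies the response, was at 32 FPKM in +/+, with 2.94 in +/N and 2.89 in N/N. Irf9, the DNA-binding partner of the STAT factors, was at 15.1, 6.91 and 6.58 FPKM. Ddx58, the RNA sensor RIG-I, was at 20.7, 8.53 and 9.78 FPKM. In these 3 the +/N and N/N values lay together, well below +/+. The receptor chain Ifnar1 (4.83 FPKM in +/+ against 5.19 in N/N) and the kinases Jak1 (12.3 and 12.9) and Tyk2 (12.3 and 13.7), named after their values were seen, differed little. Irf1, the factor of the gamma interferon branch, was at 20.2 and 23.7 FPKM. Class I antigen presentation was lower in its surface chains: H2-D1 was at 22.6 FPKM in +/+ against 7.3 in N/N and H2-K1 at 31.2 and 12.9. They were the 2 of 14 genes past 2-fold (14.3%, beside 1.46% of all genes lower), and these chains share reads with near copies. The light chain B2m was at 29.6 and 18.2 FPKM, and the peptide-loading protein Tapbp at 32 and 21.1.

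Promoter sequences were searched for the element that this pathway reads. Promoters of 300 bases, from 250 before to 50 after the start, were taken from RefSeq (mouse build GRCm38.p6) and matched to 17 of the 22 effectors by symbol. A pair of GAAA with any 2 bases between them, searched on both strands and with overlapping matches allowed, was found in 11 of those 17 genes (64.7%), in 3 of 8 effectors within 2-fold and in 3.31% of the 8099 compared genes with a promoter. Among genes at least 2-fold lower outside the interferon lists it was in 6 of 85 (7.06%), and among genes 2-fold higher in 3 of 88 (3.41%). A match is a description of the letters, not a binding site. The promoters of 3 strongly lower effectors are shown 5′ to 3′ on the strand of the gene, with the matched letters in capitals and all other bases in lower case. The Isg15 window is chr4:156200769-156201068 (minus strand), that of Irgm1 chr11:48871371-48871670 (minus) and that of Bst2 chr8:71537423-71537722 (minus).
Isg15: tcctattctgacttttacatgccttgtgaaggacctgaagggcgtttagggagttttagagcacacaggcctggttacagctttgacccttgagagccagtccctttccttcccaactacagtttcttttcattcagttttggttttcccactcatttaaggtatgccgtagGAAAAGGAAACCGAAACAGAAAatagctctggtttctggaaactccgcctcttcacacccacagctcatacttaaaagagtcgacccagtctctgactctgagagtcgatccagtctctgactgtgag
Irgm1: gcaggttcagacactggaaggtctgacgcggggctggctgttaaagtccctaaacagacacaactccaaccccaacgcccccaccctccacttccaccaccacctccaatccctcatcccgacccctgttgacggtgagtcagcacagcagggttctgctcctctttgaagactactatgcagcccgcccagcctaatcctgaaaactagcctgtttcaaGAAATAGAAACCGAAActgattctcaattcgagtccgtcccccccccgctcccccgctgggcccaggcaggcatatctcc
Bst2: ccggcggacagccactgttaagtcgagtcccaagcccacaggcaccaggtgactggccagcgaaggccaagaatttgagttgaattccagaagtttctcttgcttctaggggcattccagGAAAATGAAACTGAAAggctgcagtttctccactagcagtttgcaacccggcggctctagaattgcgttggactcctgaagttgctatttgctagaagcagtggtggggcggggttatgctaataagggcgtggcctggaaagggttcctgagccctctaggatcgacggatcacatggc
In all 3 windows the overlapping matches form 1 run of repeated GAAA. Isg15 held 3 matches and Irgm1 and Bst2 2 each, whereas the windows of Irf7, Xaf1 and Oasl1 held none, which says only that these letters are not in this window. Xaf1, a cofactor of cell death, was at 36.3 FPKM in +/+ against 4.36 in N/N all the same.

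The extracellular matrix differed in kind. Basement membrane is the sheet of collagen IV and laminin that endoderm lays down. Of its 16 components compared, 3 (18.8%, beside 1.46% of all genes) were at least 2-fold lower in N/N, and interstitial matrix was higher. Col4a1 was at 35.1 FPKM in +/+, with 8.27 in +/N and 3.75 in N/N, a log2 difference of -2.93. Its partner chain Col4a2, which starts 21 bases away in the opposite direction, was at 20.5, 5.09 and 2.73 FPKM. The laminin chain Lama1 was at 21.3, 6.64 and 3.4 FPKM. Among the 3 allele libraries these genes share 1 order, with +/+ highest and N/N lowest. In shLuc the 3 were at 7.58, 2.63 and 9.43 FPKM and in shTbx3 at 6.77, 3.44 and 13.5. Both hairpin libraries thus lay below +/+ as well, and shLuc below N/N for Col4a2. No other basement membrane gene of the 16 compared passed 2-fold: the linker Nid2 was at 112 FPKM in +/+ against 114 in N/N, Lamc1 at 57.2 and 36.1, and Lama5 was higher, at 30.2 and 44.3. The list's median was -0.18.

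Those 3 chains are also endoderm markers. All 17 endoderm markers compared were lower in N/N and 11 at least 2-fold (64.7%, beside 1.46% of all genes), with a median of -1.36. Without the 5 that are also on the basement membrane list, their summed level was 44.0 FPKM in +/+, with 14.2 in +/N and 9.18 in N/N, with 12 of 12 lower. The basement membrane list without the same 5 genes had 0 of 11 past 2-fold, a split made after the values were seen. In bulk RNA, fewer cells of a type and less RNA per cell cannot be told apart, and the part of endoderm cells in the basement membrane result was not tested.

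Interstitial matrix proteins were the list with the highest median (0.91). Of 20 compared, 18 were higher in N/N, 8 of them at least 2-fold (beside 1.12% of all genes), and 1 was 2-fold lower. Mgp, a matrix protein that keeps soft tissue from calcifying, was at 1.84 FPKM in +/+, with 29.3 in +/N and 18.4 in N/N, and was listed at 0 in both hairpin libraries. Bgn, a small proteoglycan that binds collagen, was at 12.2, 47.5 and 41.6 FPKM. Fbln2, which links elastic fibres to basement membranes, was at 13.1, 30.1 and 34.7 FPKM. For Mgp and Bgn the +/N library was the highest, and for Fbln2 it was N/N. The collagen VI chain Col6a2 was at 2, 7.35 and 6.1 FPKM, the adhesive protein Postn at 2.63, 9.64 and 8.6, and Thbs1, thrombospondin, at 13.2, 22.8 and 29.2. Fn1, fibronectin and the most abundant of the group, was higher by 0.41 (116 and 155 FPKM). Tgfbi, named after its values were seen, was the exception at 6.27, 4.05 and 2.36 FPKM.

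Fibroblast markers moved with this group: 8 of 10 compared were higher and 4 at least 2-fold (40%, beside 1.12% of all genes). Of the 10, 3 are on the matrix list as well. The 17 matrix genes not shared with that list had 15 higher, 6 at least 2-fold and a median of 0.80, a split made after the values were seen. The 4 past 2-fold were Acta2 (3.31 FPKM in +/+ against 28.1 in N/N), the matrix protein Postn (2.63 and 8.6), the collagen chain Col1a1 (14.7 and 34.3) and the calcium-binding S100a4 (5.32 and 12.4). Vim was at 130.3 and 188 FPKM, the surface protein Thy1 at 11.1 and 10, and 7 of 17 listed markers were not in the table. The labels describe the culture as free of feeders. The part of fibroblast-like cells in the matrix result was not tested.

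Enzymes that finish collagen did not share a direction. Lox, which crosslinks collagen and elastin, was at 1.95 FPKM in +/+, with 8.9 in +/N and 11.6 in N/N. It was the 1 of 20 past 2-fold (5%, beside 1.12% of all genes higher). P4ha1, the prolyl hydroxylase subunit, was at 20.5 and 36 FPKM. The collagen chaperone Serpinh1 (47.5 and 25.1) and the collagen-modifying partner Crtap (41.9 and 25.8) were lower, and 15 of the 20 were lower in all. Of 30 proteases and inhibitors 2 (6.67%, beside 1.12% of all genes) were at least 2-fold higher and 1 (3.33%, beside 1.46%) lower. The inhibitors Serpinf1 (3.88 and 8.83 FPKM in +/+ and N/N), Timp2 (3.41 and 7.52) and Timp1 (22.7 and 35.3) were higher, the last pair by less than 2-fold.

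**Figure D3:**
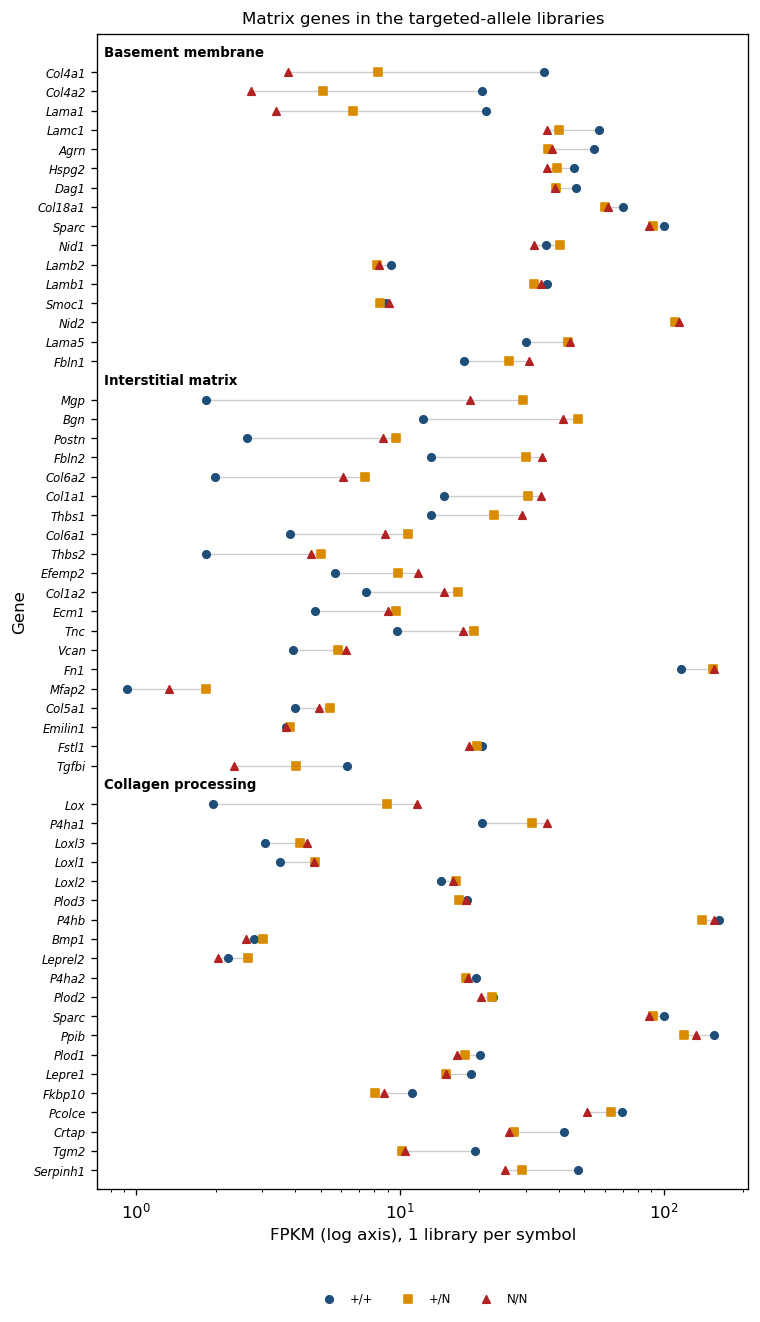
FPKM (log axis) of basement membrane, interstitial matrix and collagen-processing genes in the +/+, +/N and N/N libraries, 1 library per symbol. In the top rows of the first block (Col4a1, Col4a2, Lama1) the +/+ circle lies far to the right, and through most of the second block it lies to the left of both other symbols.

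Contractile and junction genes were higher in a few members each. Acta2, smooth muscle actin, was at 3.31 FPKM in +/+, with 19.3 in +/N and 28.1 in N/N, and Tagln, an actin crosslinker of the same programme, at 7.86, 23.4 and 31.6. Both rank in the order of the targeted alleles among the allele libraries. In shLuc and shTbx3 Acta2 was at 0.688 and 7.89 FPKM and Tagln at 13.7 and 106. Of 33 actin and contractile genes 25 were higher, 3 at least 2-fold (9.09%, beside 1.12%), with a median of 0.19. Acta2 is on the fibroblast marker list too, and without it 2 of 32 passed 2-fold, with a median of 0.18. The part of fibroblast-like cells in this result was not tested. The smooth muscle light chain Myl9 was at 5.79 and 12.2 FPKM, while the abundant Actb was lower at 1147 and 881. Tns1, tensin of focal adhesions, was 2-fold lower at 5.24 and 1.47 FPKM.

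Of 32 cadherin and junction genes 21 were higher, 5 of them at least 2-fold (15.6%, beside 1.12%), 11 were lower and 27 were within 2-fold, with a median of 0.35. Claudins, the proteins of tight junctions, were also counted by name over all genes compared, not only those on this list. All 8 were higher, 3 of them at least 2-fold. Cldn4 was at 106 FPKM in +/+, with 149.9 in +/N and 213 in N/N, and Cldn3 at 11.9, 21.2 and 29.8. Gja1, connexin 43 of gap junctions, was at 26.3, 56.2 and 57.3 FPKM. Esrp1, a splicing factor of epithelial cells, was at 6.39, 11.6 and 21, and Rab25, which recycles membrane to the apical surface, at 3.49, 5.8 and 12.2. In Esrp1, Rab25, Cldn3 and Cldn4 the +/N value lay between the other two, and in Gja1 the +/N and N/N values were alike. The catenins Ctnnb1 (207 and 190.0 FPKM in +/+ and N/N) and Ctnna1 (131 and 126) differed little.

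Few members of the signalling lists passed 2-fold. Of 36 FGF and ERK genes 23 were lower in N/N and 2 at least 2-fold (5.56%), with a median of -0.24, where 54% of all genes compared were lower and 1.46% at least 2-fold. Spry4, an inhibitor that ERK induces against itself, was at 25.8 FPKM in +/+, with 13.8 in +/N and 8.92 in N/N. Myc was at 9.35, 5.74 and 3.99 FPKM. The ERK-induced factor Etv4 (38.7 and 20.1 in +/+ and N/N) and phosphatase Dusp5 (19.7 and 10.1) were lower by less than 2-fold. The ligand Fgf4, the main autocrine FGF of these cells, was at 87.2 and 86.2 FPKM, and the early target Egr1 was higher at 54.7 and 69.9.

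Of 19 genes of LIF and STAT3 signalling 2 passed 2-fold, both lower (10.5%, beside 1.46% of all genes). Klf4, a Krüppel-like factor that STAT3 sustains, was at 88.9 FPKM in +/+, with 49.5 in +/N and 36.5 in N/N, and the homeobox gene Gbx2 at 12, 7.79 and 5.41. In shLuc and shTbx3 Klf4 was at 45.2 and 68.4 FPKM and Gbx2 at 7.91 and 24.4. Socs3, the feedback inhibitor of the receptor, was at 74.9 and 63.3 FPKM, and the kinase Pim1 was higher at 60.8 and 96.

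In the TGF-beta family, Inhbb, the activin subunit, was at 11.2 FPKM in +/+, with 4.2 in +/N and 2.96 in N/N, the 1 of 39 past 2-fold (2.56%, beside 2.57% of all genes), while the Nodal inhibitor Lefty1 was at 57.1 and 72.9. In the Wnt pathway 3 of 36 (8.33%, beside 1.46% of all genes) were lower by 2-fold. They were Sfrp1, a secreted decoy for Wnt (27.6, 10.3 and 6.87 FPKM), Notum, which strips Wnt of its lipid (7.06, 3.14 and 2.19), and the receptor Fzd5 (33.3, 19.4 and 15). Among the allele libraries +/+ was highest and N/N lowest in each of these 3. The hairpin libraries did not keep to that range. Notum was at 9.27 FPKM in shLuc and 21.6 in shTbx3, above +/+, and Fzd5 at 14.7 and 12.9, below N/N. The ligand Wnt7b was 2-fold higher in N/N and level in +/N, at 5.94, 5.63 and 13.3 FPKM. The abundant beta-catenin gene Ctnnb1, given above, differed little.

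The remaining developmental pathways differed less. None of 24 Notch genes passed 2-fold, 18 were higher (median 0.20), and the ligand Dll1 (9.1 and 16.4) and the target Hes1 (29.2 and 17.4) lay on opposite sides. None of 11 Hedgehog genes and none of 19 YAP and TEAD genes passed 2-fold, and the YAP targets Ctgf (104 and 122) and Cyr61 (71.8 and 75.9) differed little. Sema5b, a guidance semaphorin, was at 9.51, 3.1 and 1.21 FPKM, and the ephrin receptor Epha2 at 79.4, 44.8 and 38.7. Of 14 retinoid genes 2 (14.3%, beside 1.12% of all genes) were at least 2-fold higher, among them the retinoic acid carrier Crabp2 (1.8 and 6.29).

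Cytokine, growth and early-response genes each held a few large differences. Of 23 cytokine and chemokine genes 2 (8.7%, beside 1.46% of all genes) were at least 2-fold lower. Srgn, a secretory proteoglycan, was at 6.54 FPKM in +/+, with 1.79 in +/N and 0.253 in N/N, and the receptor Cmklr1 at 9.28, 6.97 and 3.77. Srgn is on the endoderm list too. The growth factor Mdk (167, 103 and 85.6 FPKM) and the cytokine Mif (152, 221 and 277) lay on opposite sides, both within 2-fold. Of 26 genes of IGF, insulin and imprinted growth, Igf2 and the linked noncoding H19 (34.2, 82.4 and 116) were 2-fold higher (7.69%, beside 1.12% of all genes). Phlda2, which restrains placental growth, was 2-fold lower (3.85%, beside 1.46%), at 62, 63.8 and 27.5. Phlda2 was level in +/N, unlike H19. Of 20 immediate-early genes 12 were higher, beside 46% of all genes, with a median of 0.13. Atf3 was the 1 past 2-fold, on the lower side (5%, beside 1.46% of all genes). The abundant Ier2 was lower at 179, 94.6 and 90.9 FPKM.

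Most metabolic lists held no gene past 2-fold. None of 30 cholesterol genes, 35 fatty acid genes, 25 glycolytic genes, 29 citric acid cycle genes, 26 genes of serine and folate metabolism and 22 genes of proline, glutamine and polyamine metabolism passed 2-fold, against a background of 2.57% either way. The median of glycolysis was 0.21: Aldoa, an aldolase and the most abundant of the group, was at 871 FPKM in +/+, with 1134 in +/N and 1409 in N/N, Gpi1 at 113, 142 and 185, and Pgam1 was lower at 30.2, 17.5 and 18.8. The main glucose transporter Slc2a1 was lower by less than 2-fold (416 and 338). In the citric acid cycle 23 of 29 were higher, each by little (median 0.14), with Cs, citrate synthase, at 86.9 and 108 FPKM. Lipid enzymes lay on both sides. Fasn, fatty acid synthase, was at 72.3, 40.7 and 41.2 FPKM and Fabp3, a fatty acid carrier, at 84.4, 99.4 and 144. Tdh, the threonine dehydrogenase on which mouse stem cells rely, was at 131, 112 and 99.1 FPKM.

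Hypoxia-response genes were the exception among metabolic lists: 4 of 26 (15.4%, beside 1.12% of all genes) were at least 2-fold higher. Adm, adrenomedullin, was at 3.05 FPKM in +/+, with 9.34 in +/N and 9.19 in N/N, Ddit4, which restrains mTORC1, at 110.3, 208 and 272, and Ndrg1 at 20.2, 42.2 and 48.1. Bhlhe40, a repressor that also acts in the clock, was at 40.6, 66.1 and 89 FPKM. In these 4 genes both targeted libraries lay above +/+. The list as a whole had a median of 0.07, and other classic members did not follow: Slc2a3 was at 339 and 314 FPKM, Pdk1 at 56 and 52.5, and Epas1, a hypoxia factor, was lower at 18.7 and 11.

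Of 42 genes of the ATF4 and CHOP arm of the integrated stress response 3 were at least 2-fold higher and 2 at least 2-fold lower, with a median of 0.13. The shares were 7.14% and 4.76%, beside 1.12% and 1.46% of all genes. Ddit3, the factor CHOP of prolonged stress, was at 11.9 FPKM in +/+, with 31.4 in +/N and 45.1 in N/N. Nupr1, a stress-induced chromatin protein, was at 5.16, 12.4 and 17.9, and Atf4 itself, within 2-fold, at 52.1, 80.9 and 96.7. All 3 rank in the order of the targeted alleles among the allele libraries. In shLuc and shTbx3 Ddit3 was at 9.75 and 9.11 FPKM, Nupr1 at 10.8 and 3.49 and Atf4 at 84.2 and 101. The shLuc library, labelled wild type, thus lay above +/+ for Nupr1 and Atf4 and below it for Ddit3. Ddit4, named above, is also on this list. The amino acid transporter Slc7a1 (10.2, 6.47 and 4.43 FPKM) and the early factor Atf3 (7.46, 3.53 and 2.95) were the 2 that were 2-fold lower. Asns, asparagine synthetase and a standard ATF4 target, was at 102 and 101 FPKM. The letters TGATGNAA, the core of an element that ATF4 and CHOP bind, were searched on both strands and found in the promoters of 11 of 36 list genes (30.6%) and of 2.52% of the compared genes. The Ddit3 window held no match.

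Protein folding genes differed little. Kdelr3, a receptor that returns chaperones to the endoplasmic reticulum, was the 1 of 31 genes of that list past 2-fold (3.23%, beside 1.46% of all genes lower). It was at 29.2, 15.4 and 9.95 FPKM in +/+, +/N and N/N. The chaperone Hspa5 was at 202 and 184 FPKM. None of 23 cytosolic heat shock genes and none of 25 p53 and DNA damage genes passed 2-fold, with Hsp90ab1 at 1536 and 1557 and the p53 target Cdkn1a at 46.1, 59.1 and 68.2 FPKM.

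Glutathione enzymes were higher as a family. Of 18 glutathione S-transferases, which join glutathione to reactive compounds, 16 were higher and 4 at least 2-fold, with a median of 0.44. Of all genes compared, 46% were higher and 1.12% at least 2-fold. Gstm3 was at 4.13 FPKM in +/+, with 6.55 in +/N and 14.6 in N/N, Gstm1 at 15.2, 21.8 and 32.2, and Gstt2 at 8.52, 12.8 and 18.6. In each, +/+ was lowest and N/N highest among the allele libraries, and copies of this family can share reads. The metallothionein Mt1 was at 365, 430.2 and 707 FPKM, the peroxide-removing Gpx4 at 78.8, 104 and 139.8, and Sod1 at 556 and 558. Over all 48 redox genes 31 were higher, 3 at least 2-fold (6.25%, beside 1.12% of all genes). Lysosomal genes showed 28 of 39 higher, beside 46% of all genes, and none 2-fold higher. Neu1, the sialidase, was at 7.52 and 15.2 FPKM and Hexa at 25.4 and 43.7. The 4 lower by 2-fold (10.3%, beside 1.46% of all genes) were endocytic genes that are endoderm markers too. Amn was at 7.48, 1.12 and 1.39 FPKM. Its partner Cubn, named after its values were seen with Dab2 and Lrp2, was at 4.3, 0.522 and 0.0614.

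**Figure D4:**
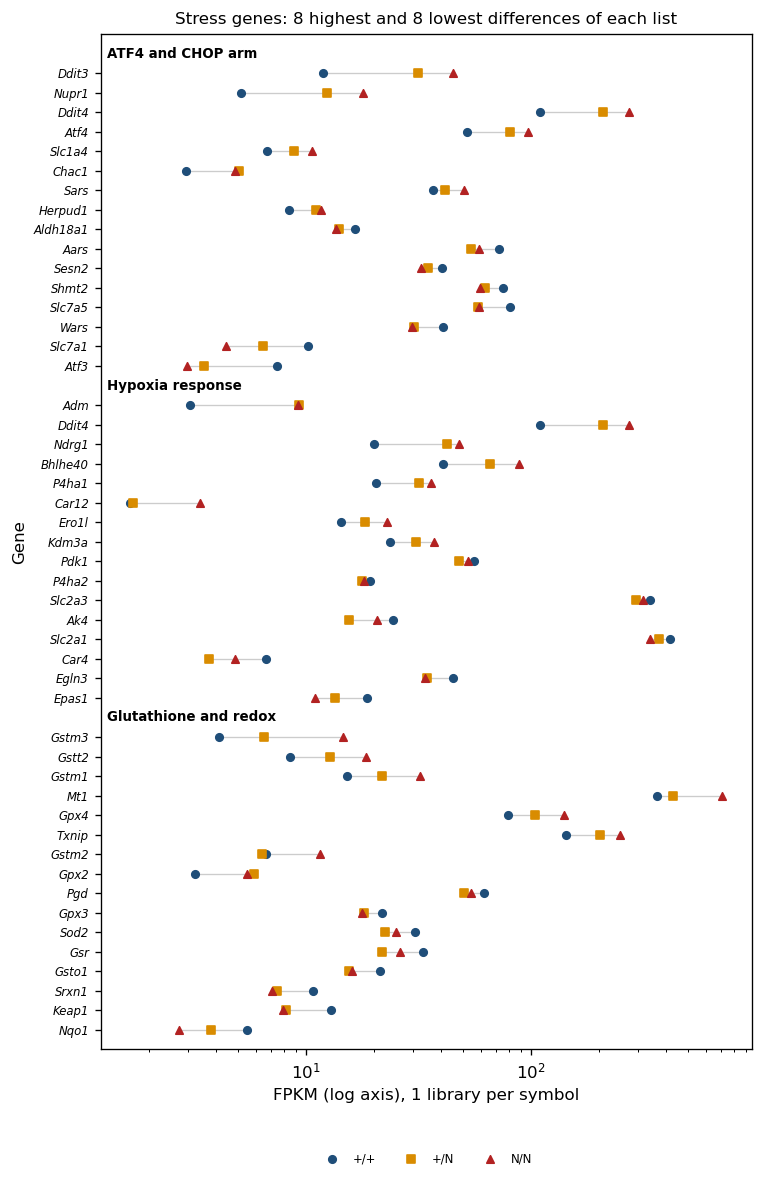
FPKM (log axis) in the +/+, +/N and N/N libraries of the 8 genes with the highest and the 8 with the lowest difference in the ATF4, hypoxia and redox lists, 1 library per symbol. For the top genes of each block the N/N triangle lies to the right of +/+, by at least 2-fold for Ddit3, Nupr1, Ddit4, Adm, Ndrg1, Bhlhe40, Gstm3, Gstt2 and Gstm1.

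Few chromatin genes passed 2-fold: 0 of 30 Polycomb genes, 1 of 49 remodellers (2.04%) and 1 of 63 histone modifiers (1.59%), shares at or below the 2.57% of all genes, from which nothing is read about chromatin genes. Ezh1, the methyltransferase paralogue of Ezh2, came closest among the Polycomb genes, at 11 FPKM in +/+, with 18 in +/N and 22.9 in N/N, and Phf19, which guides Polycomb to CpG islands, was at 7.93, 12 and 16. Kdm2b was lower at 21.9 and 13.6 FPKM. Of 49 trithorax, SWI/SNF and NuRD genes 33 were lower (median -0.13), and Smarcd3, a SWI/SNF subunit, was the 1 past 2-fold, at 6.85, 3.6 and 2.35. Prmt8, an arginine methyltransferase, was the 1 of 63 histone modifiers past 2-fold, at 11.6, 6.08 and 3.29 FPKM.

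Among 18 genes of DNA methylation, Dppa3 was the 1 past 2-fold (5.56%, beside 1.12% of all genes higher). Dppa3 is the maternal factor Stella that keeps the maintenance cofactor Uhrf1 off chromatin. It was at 5.32 FPKM in +/+, with 8.95 in +/N and 24.7 in N/N, and at 29.1 in shLuc and 51.3 in shTbx3. The shLuc library, labelled wild type, thus lay above N/N. The de novo enzyme Dnmt3b was higher by 0.50 and the imprint guardian Zfp57 lower (104, 79.5 and 66.4 FPKM). Uhrf1 itself was at 94.3 and 83.7. Among histones, the variant H2afz was at 65.8, 39.3 and 32 FPKM, the 1 of 31 past 2-fold (3.23%, beside 1.46% of all genes lower). H3f3a, which encodes H3.3, was at 49.4, 33 and 26.7, and 23 of the 31 were lower, beside 54% of all genes. These histone genes have near copies in the genome that can share reads.

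Tbx3 binding is a separate readout that the rule did not use. The deposited list holds 3078 sites where biotin-tagged Tbx3 was pulled down from N/N cells that express the tagged protein, on mm9. They were set beside the gene models of the same build (NCBIM37), which named 11122 of the compared genes. A site lay within 20 kb of the start of 1671 genes (15%), of 27 of 119 genes 2-fold higher (22.7%) and of 20 of 157 genes 2-fold lower (12.7%). Of the 22 lower interferon effectors, 3 (13.6%) had a site in that window. Sites were at 3 of 16 basement membrane genes (18.8%) and 1 of 20 interstitial matrix genes. They were at 0 of 17 endoderm markers, 0 of 10 fibroblast markers and 8 of 11 stem cell markers. Most genes compared had no site in the window, so nothing is read from these counts about the matrix genes.

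Among the called genes with a site, some are named above. Dppa3 had a site 1400 bases upstream, with a deposited score of 411.1, and Gja1 a site 2632 bases upstream (231.7). Cldn4 had 4 sites within the window, 1 of them at its start, and Cldn3 had a site 196 bases upstream. Ddit4 had a site 5969 bases upstream (176.4), Bhlhe40 a site 1501 bases upstream and Epha2 a site 9061 bases upstream (231.1). Fzd5, at 4637 bases downstream of its start, and Ddx58, at 980 bases, had sites among the lower genes. The score is the authors' own and ranks sites within the list only.

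The letters GGTGTGA, the core that T-box factors bind, were searched on both strands in windows of at most 300 bases at the centre of every site. They were present in 308 of 3078 windows (10%) and at least in duplicate in 16 (0.52%). The windows of Dppa3, Gja1, Cldn3 and Cldn4 held none. Oas1a was at 12.5 FPKM in +/+ against 3.59 in N/N, and whether Tbx3 acts on it was not tested. The window 12508 bases downstream of its start held 2 matches and is shown as 1 of the 16 with at least 2. It is chr5:121344692-121344991 of NCBIM37, read on the plus strand, with the matched letters in capitals (the capitals TCACACC are a match on the other strand). Oas1a spans 121346265-121357536 on the minus strand, so the site lies past its 3′ end. The start of Oas1g, of the same family, is nearer, at 121337622. Oas1a has near copies that share reads, was picked for this display after its values were seen, and was lower in every other library as well.
Oas1a site: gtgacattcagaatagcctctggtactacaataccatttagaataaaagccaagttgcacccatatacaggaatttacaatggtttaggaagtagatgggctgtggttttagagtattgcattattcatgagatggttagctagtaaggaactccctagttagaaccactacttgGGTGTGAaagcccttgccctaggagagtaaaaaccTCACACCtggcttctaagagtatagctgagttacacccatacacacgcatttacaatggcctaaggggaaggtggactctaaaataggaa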

How the data were processed

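The bulk values are FPKM made by the authors, and the tools listed per the submitters' processing notes are TopHat, Cufflinks and Cuffdiff, with the build mm9. Their versions, the read depth and the filter behind the listed genes are not given in the sources used here. FPKM sets each library to its own total: the names left out held 19.6% of the summed FPKM in +/+ and 20.5% in N/N. Each Tbx3 site carries a deposited score; the notes name Bowtie 1.0 and HOMER, and the sources used here do not say which tool scored the sites. Site sequences were read from NCBIM37, the same build as mm9, and 0 sites ran past its chromosome ends.

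Differences were computed with a pseudocount of 1 in Python 3.11.15 with pandas 2.3.3, after a test on simulated data. Named genes are Tbx3, Dppa3, the 25 largest differences each way at 5 FPKM or more in either library (no predicted models or small RNAs) and, per list, up to 6 by difference and 4 by +/+ level. Some that the rule gives are not named, and some results are not reported here. The members and lists were chosen with earlier results of these data known. Alternatives changed the pseudocount, the fold, the filter, the scaling and the names left out.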

Additional observations from a re-analysis of the deposited data

How the results depend on the processing

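The counts depend mainly on the pseudocount and the fold. With a pseudocount of 0.1, 229 genes passed 2-fold on the higher side and 301 on the lower, and with 5 they were 38 and 51. At 1.5-fold they were 575 and 669. A filter of 5 FPKM gave 104 and 128, and keeping small RNA and date names 157 and 220. Dropping the filter gave the same 126 and 164, as it had to. With a pseudocount of 1, a gene below 1 FPKM in both libraries cannot differ by 2-fold. Setting the median difference to 0 gave 139 and 151, an equal upper quartile 144 and 150, and rescaling to the total without small RNA names 131 and 158. Each of these scalings moved N/N up, by at most 0.04 on the log2 scale. Of the 95 named genes past 2-fold, 61 stayed past it with a pseudocount of 5. None of the 95 changed sign. They could not, because a pseudocount keeps the sign of a difference and the scalings moved N/N so little. None of the 22 list medians computed changed sign. Some lists with medians nearer 0, such as Polycomb (-0.019) and cholesterol (0.020), were not among the 22. No paired analysis was possible because each group has 1 library. For the same reason no library could be left out, and the read depth, which limits the precision of low values, is unknown.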

Other observations

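Some further groups were listed after the differences had been seen, so their counts are descriptions of what was noticed and support nothing. Clock genes were higher in 10 of 15, 2 of them at least 2-fold: Nr1d1, a repressor of the clock, was at 4.75 FPKM in +/+, with 10.1 in +/N and 15.3 in N/N, and Per1 and the output factor Dbp lay just under 2-fold, at 8.75 and 18.5 and at 3.82 and 8.51 FPKM in +/+ and N/N. The activator Arntl was at 5.01 and 3.99. Genes of nutrient sensing were higher in 14 of 21, with Pik3ip1, an inhibitor of PI3 kinase, at 4.46, 7.24 and 11.6 FPKM and Fnip1, a partner of folliculin, at 4.06, 7.74 and 9.29. Annexins, S100 proteins and galectins were higher in 16 of 22, 7 at least 2-fold, among them S100a11 at 8.85, 20.8 and 25.3 FPKM and S100a13 at 7.26, 11.4 and 21.5. Lgals9 was lower, at 37.5, 9.05 and 17.2.

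RNA-processing groups ran in opposite directions. Host genes of small nucleolar RNAs were higher in 12 of 13, 3 at least 2-fold, with Snhg6 at 61.9, 111 and 132 FPKM (+/+, +/N and N/N) and Snhg5 at 18.2, 30.9 and 39.3, and these genes carry small nucleolar RNAs in their introns. Splicing regulators of the SR and hnRNP families were lower in 30 of 38 with a median of -0.29, and none passed 2-fold. Malat1, a nuclear RNA that associates with such regulators, was at 17.5, 52.5 and 53.2 FPKM, and at 163 in shLuc and 175 in shTbx3. Genes outside the lists with large differences included Tdrd12, of the piRNA pathway (12.1, 28 and 44.6), and Tcf15, a factor of cells leaving the naive state (136, 43.8 and 34.5). Ifi27l1, an interferon-inducible gene by name that was not on the effector list, was at 173, 53.9 and 48.4 FPKM in the allele set and 0.286 and 0.34 in shLuc and shTbx3.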
